A study of Mus musculus with 24 samples.

Results

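The suppressors of cytokine signalling (SOCS) are a family of 8 proteins that switch cytokine receptors off again after they have fired, and all of their genes (Cish and Socs1 to Socs7) were found by symbol among the 26267 genes of the deposited expression table. They were followed over all 24 libraries of a mouse RNA-seq study. Each library held poly(A) RNA of bone marrow cells sorted as LSK, the lineage-negative fraction with Sca-1 and Kit on its surface in which stem cells and multipotent progenitors of the blood are found. The 4 genotypes are WT (wild type), FancgKO (a knockout of Fancg, a subunit of the Fanconi anaemia DNA repair complex), Mdm4Tg (a transgene for the p53 inhibitor Mdm4) and FancgKO_Mdm4Tg (both changes). Mice had been given PBS or poly(I:C), a double-stranded RNA mimic that sets off an interferon response. Libraries with PBS and with poly(I:C) numbered 4 and 3 in WT, 4 and 3 in FancgKO, 3 and 2 in Mdm4Tg, and 3 and 2 in FancgKO_Mdm4Tg. No allele or agent is named as common to all 8 groups. Strain, age, sex, the design of the knockout, the promoter of the transgene, and the dose and timing of poly(I:C) are not given in the sources used here. Nothing there says that libraries came from separate animals, so the p-values below reflect the spread among the libraries alone, which may be technical.

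A cytokine receptor that binds its ligand activates JAK kinases, which phosphorylate the receptor and the STAT transcription factors docked on it. STATs then switch on genes in the nucleus, among them those for several SOCS proteins, which return to the receptor and close the circuit. Every SOCS protein has an SH2 domain that reads phosphotyrosine and a SOCS box that recruits a ubiquitin ligase through elongins and a cullin. In blood stem cells this circuit limits signals such as interferons and the interleukins. Cish and Socs2 are classical STAT5 targets that act on growth hormone and related receptors. Socs3 is a STAT3 target that blocks receptors sharing gp130 and the G-CSF receptor. Socs1 is induced by interferons and restrains the interferon receptors themselves. Socs4 and Socs5 are linked to the epidermal growth factor receptor, and Socs6 and Socs7 to Kit, insulin and adaptor signalling; these 4 are less dependent on cytokines for their expression.

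The promoters of Cish, Socs3 and Socs1 are shown because each holds letters of the kind that STATs or interferon regulatory factors read. Sequences are from RefSeq on GRCm38, read 5′ to 3′ on the gene's strand, with the matches in capitals. Promoter windows reached from 250 bases before to 50 bases after the start site and were matched by symbol for Cish, Socs1, Socs3 and Socs4. The STAT-type motif TTCNNNGAA reads the same on both strands and was found in 8.3% of 32851 windows of 300 bases. The interferon-response motif GAAANNGAAA, searched on both strands, was found in 3.44%.
Cish, chr9:107296654-107296683, plus strand, TTCNNNGAA: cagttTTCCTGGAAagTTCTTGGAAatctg
Socs3, chr11:117969501-117969530, minus strand, TTCNNNGAA: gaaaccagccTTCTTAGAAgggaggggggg
Socs1, chr16:10785597-10785626, minus strand, GAAANNGAAA: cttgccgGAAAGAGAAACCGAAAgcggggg
Positions are counted from the RefSeq start site on which each window is built; for Cish and Socs3 this site lies inside the longer gene span that is given below from the GENCODE annotation. Cish held 2 copies of the STAT-type motif, which began at bases 1 and 12 from the RefSeq start. Socs3 held 1 copy, which began 154 bases before its RefSeq start. Socs1 held no STAT-type motif and 2 overlapping copies of the interferon-response motif, which began 83 and 77 bases before it, and Socs4 held neither set of letters in its window. A match is a description of letters, not a bound site.

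Depth was 807686 to 8229715 reads per library (median 2583130), with a median of 1540400 in the 14 PBS libraries and 4251221 in the 10 with poly(I:C). Mdm4 was at 5023 to 7105 normalized counts in the 10 transgenic libraries and at 750.9 to 1293 in the other 14. Fancg was at 26.13 to 71.41 in the 12 knockout libraries and 41.25 to 78.37 in the other 12, one total over all exons that cannot check a partial deletion. The gate genes were present in all 24: Kit at 1483 to 2414, and Ly6a, which encodes Sca-1, at 11.69 to 45.91. Titles of 12 libraries end in _d (numbers 6 and 7) and those of the other 12 in _d_2 (numbers 2, 4 and 8), and nothing in the labels says what this ending marks. Each ending holds libraries of all 8 groups, 6 PBS and 6 poly(I:C) libraries for _d against 8 and 4 for _d_2. Between the endings 45.3% of all genes differed, so results are given with and without it. In 6 of the _d libraries (FancgKO 6 and 7 with either treatment, and WT 6 and 7 with poly(I:C)) Xist, which cells of females express, was at 362.5 to 20210 normalized counts, against at most 24.78 in the other 18. Libraries within a group thus differed in Xist in 3 of the 8 groups, and WT libraries 6 and 7 with PBS and with poly(I:C) differed in Xist although they share a number.

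Socs4 to Socs7 were abundant and the cytokine-inducible members scarce in every library: the highest Cish value was 43.48 normalized counts and the lowest Socs7 value 51.01 (plot of normalized counts in each library). Per kilobase of annotated exon, the median over 24 libraries was 61.2 normalized counts for Socs4, 19.1 for Socs5, 15.8 for Socs6 and 12.8 for Socs7. It was 4.69 for Socs3, 3.18 for Cish, 2.52 for Socs1 and 0.667 for Socs2. Socs4, at 36.58 to 91.77 per kilobase, lay above all other members in every library. The next 3 overlapped, with Socs5 at 10.93 to 31.82, Socs6 at 10.36 to 18.93 and Socs7 at 7.021 to 15.48, and so did neighbours among the lower 4, with Socs3 at 1.05 to 11.55, Cish at 1.182 to 6.773, Socs1 at 0 to 3.771 and Socs2 at 0.1533 to 2.541. Reads behind these values ran from 77 to 1821 per library for Socs4, 48 to 392 for Socs5, 36 to 625 for Socs6 and 21 to 320 for Socs7. They ran from only 7 to 58 for Cish, 2 to 41 for Socs3, 0 to 32 for Socs1 and 1 to 25 for Socs2, so counting error alone is large for these 4. All 8 members passed the filter of 10 normalized counts in 2 libraries, but Socs1 reached 10 in 3 libraries and Socs2 in 4, against 14 for Socs3, 23 for Cish and all 24 for the rest. Socs6 shares part of its span with AC122398.2 and AC122398.3 on its own strand and AC118614.1 on the other, so its reads may be split between gene models.

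Scarce members varied widely within groups. Socs2, which restrains growth hormone signalling (ENSMUSG00000020027; chromosome 10, 95385362 to 95417180, minus strand), was at 12.1 ± 10.2 (SD, n = 4) normalized counts in FancgKO with PBS, from 1.461 in library 6 to 24.22 in library 4, and at 5.63 ± 1.91 (n = 3) in FancgKO with poly(I:C). Its group means in the other genotypes were 7.02 to 9.35 for PBS against 4.95 to 5.81 for poly(I:C); the poly(I:C) mean was the lower in all 4 genotypes, and the ranges overlapped in each. Socs7 (ENSMUSG00000038485; chromosome 11, 97362551 to 97398542, plus strand) had its lowest mean in FancgKO_Mdm4Tg with PBS, 66.9 ± 23.6 (n = 3), and its highest in Mdm4Tg with poly(I:C), 101 ± 2.85 (n = 2). Group means of Socs6 lay between 152 ± 37.1 (n = 3; FancgKO with poly(I:C)) and 183 ± 23.3 (n = 3; Mdm4Tg with PBS). Group means of Socs4 lay between 384 ± 127 (n = 4; FancgKO with PBS) and 476 ± 160 (n = 3; FancgKO_Mdm4Tg with PBS), and the SDs of both groups were larger than the difference between their means.

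**Figure D1:**
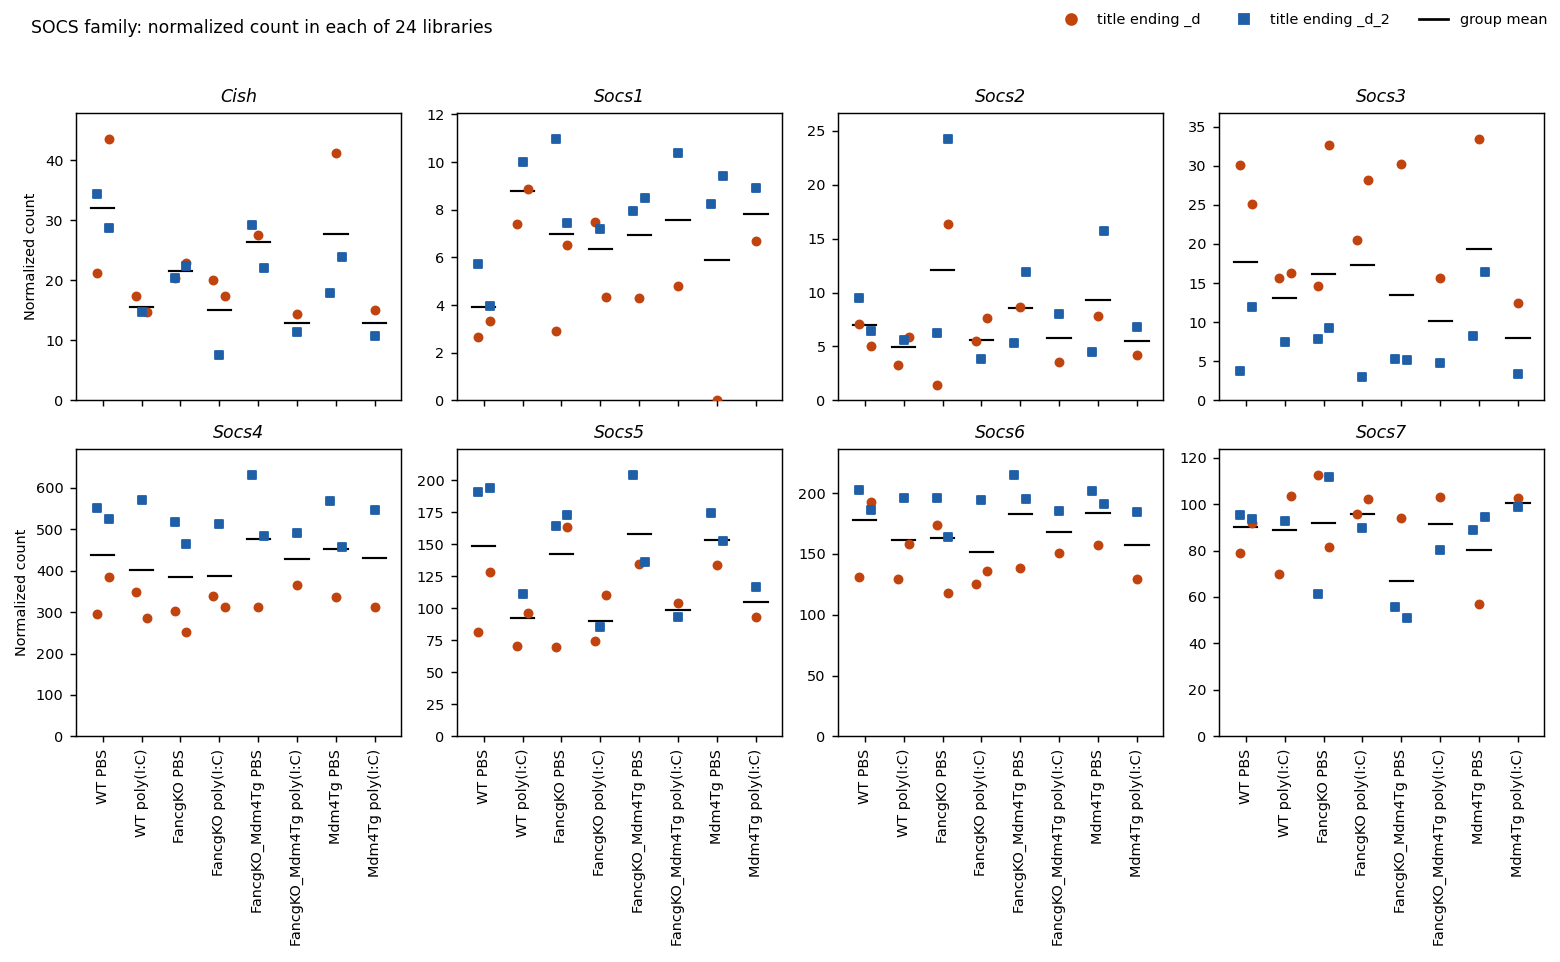
Normalized count (vertical axis, linear, from 0) of each SOCS gene in every library, by genotype and treatment, with circles for titles ending in _d, squares for _d_2 and a line at the group mean. Socs4 squares lie at 457.2 or more and circles at 384.6 or less in every group, and all Cish values with poly(I:C) lie at 19.98 or less.

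Cish (ENSMUSG00000032578; chromosome 9, 107296026 to 107302784 of mm10, plus strand), whose promoter held the paired STAT-type letters, was lower after poly(I:C). In WT it was at 34.33, 21.24, 43.48 and 28.74 normalized counts with PBS (libraries 2, 6, 7 and 8), and at 17.32, 14.79 and 14.71 with poly(I:C) (6, 7 and 8). In FancgKO it was at 20.36, 22.35, 20.45 and 22.87 with PBS (2, 4, 6 and 7), and at 19.98, 17.37 and 7.586 with poly(I:C) (6, 7 and 8). Every poly(I:C) library of these genotypes lay below every PBS library of its genotype. In FancgKO_Mdm4Tg it was at 29.17, 27.60 and 22.10 with PBS (2, 7 and 8) against 14.38 and 11.32 with poly(I:C) (7 and 8). In Mdm4Tg it was at 17.94, 41.25 and 23.90 with PBS (2, 7 and 8) against 15.01 and 10.78 with poly(I:C) (7 and 8). The groups of the transgenic genotypes did not overlap either, and over all libraries 17.94, the lowest PBS value, was exceeded with poly(I:C) by FancgKO library 6 alone. The share of all genes whose groups separate in this way was not counted, so the lack of overlap is a description. On the scale of log2(normalized count + 1), the difference averaged over the 4 genotypes was -0.88 ± 0.18 (SE, n = 10 and 14; limma adjusted p = 0.00185). The gene span of Cish overlaps Gm17040 and Gm17041 on the other strand, and reads in shared stretches cannot be told apart if strand was not used in counting.

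Socs5 (ENSMUSG00000037104), on chromosome 17 at 87107679 to 87137839 (plus strand), was the other member that fell. In WT it was at 190.7, 81.41, 128.8 and 194.3 normalized counts with PBS (2, 6, 7 and 8) and at 70.91, 96.12 and 111.1 with poly(I:C) (6, 7 and 8). In FancgKO it was at 164.5, 173.2, 70.11 and 163.3 with PBS (2, 4, 6 and 7) and at 74.41, 110.7 and 85.73 with poly(I:C) (6, 7 and 8). Library 6 with PBS was the lowest of its group in both genotypes, within the poly(I:C) range in WT and below it in FancgKO. In FancgKO_Mdm4Tg it was at 204.2, 134.5 and 136.0 with PBS (2, 7 and 8) against 104.2 and 92.92 with poly(I:C) (7 and 8). In Mdm4Tg it was at 174.9, 133.6 and 152.8 with PBS (2, 7 and 8) against 93.40 and 116.4 with poly(I:C) (7 and 8). Groups did not overlap in the transgenic genotypes, which hold only 3 and 2 libraries. How many of all genes separate there was not counted, so this is a description. The averaged log2 difference was -0.60 ± 0.16 (SE, n = 10 and 14; limma adjusted p = 0.0123). The poly(I:C) libraries were also the deeper ones, and the part of depth in either difference was not tested. In sorted bulk cells, fewer cells of a type and less RNA per cell cannot be told apart.

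These were 2 of the 8 members, and 23.6% of the 12628 genes tested were called in the same contrast (11.6% lower), so the share of members called was near that of all genes. None rose. The median log2 difference was -0.27 over the 8 members and 0.01 over all genes tested. Socs1 was at 0.50 ± 0.33 (limma adjusted p = 0.283), Socs2 at -0.51 ± 0.33 (0.256), Socs3 at -0.40 ± 0.42 (0.507) and Socs7 at 0.23 ± 0.13 (0.193). Socs6, at -0.15 ± 0.12 (0.372), and Socs4, at -0.08 ± 0.17 (0.762), had the values nearest to 0, and that of Socs4 was positive when the ending was fitted. The SE of Socs3 was the largest of the family, and its libraries split by title ending.

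Fitting the title ending beside the groups raised the share of genes called to 34.8% and added Socs3 to the members called lower. Its difference became -0.68 ± 0.22 (limma adjusted p = 0.0187), with Cish at -0.93 ± 0.16 (3.11e-04) and Socs5 at -0.54 ± 0.14 (0.00529). Socs1, at 0.65 ± 0.28, did not pass (0.0702). Socs3 (ENSMUSG00000053113; chromosome 11, 117966079 to 117970047, minus strand) ran from 14.61 to 33.39 (median 30.13) in the 6 _d libraries with PBS and from 12.51 to 28.22 (median 15.97) in the 6 with poly(I:C). In the _d_2 libraries it ran from 3.815 to 16.35 (median 8.027) in 8 with PBS and from 3.035 to 7.509 (median 4.052) in 4 with poly(I:C). Within each ending the ranges overlapped while the medians were lower with poly(I:C), and the PBS values of _d_2 lay mostly below the poly(I:C) values of _d. Within the 12 libraries ending in _d_2, Cish was at -1.10, Socs5 at -0.77 and Socs3 at -0.69. Each poly(I:C) group there holds a single library, always number 8, so that fit measured no spread among poly(I:C) libraries of a group. Within the 12 ending in _d, limma called 0 genes in all, with 1367 at an unadjusted p under 0.05. There Cish was at -0.85 ± 0.25 (limma adjusted p = 0.417) and Socs5 at -0.36 (0.595). Cish and Socs5 were thus called in all 24 together and had negative values within each ending, but were not called in the _d libraries alone (plot of the poly(I:C) response). In _d the groups of both transgenic genotypes also hold a single library each.

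**Figure D2:**
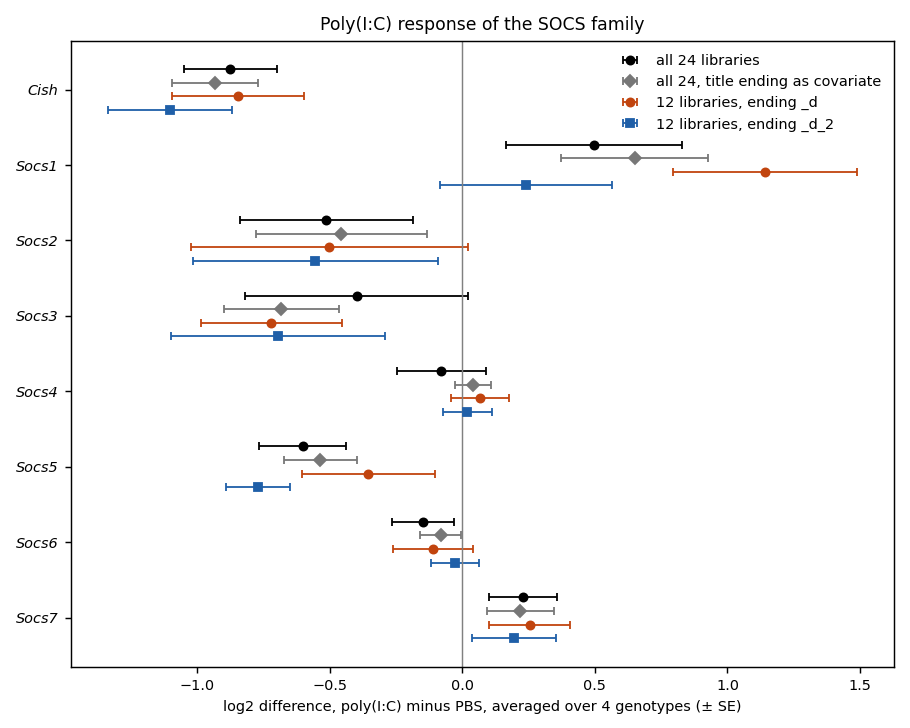
Log2 difference between poly(I:C) and PBS on the log2(normalized count + 1) scale (horizontal axis, error bars 1 SE), averaged over 4 genotypes, for each SOCS gene in 4 fits: all 24 libraries, all 24 with the title ending as a covariate, and each ending alone. Cish lies between -0.85 and -1.10 in all 4 fits, and the Socs3 error bar shrinks from 0.42 to 0.22 when the ending is fitted. In the fit of _d_2 alone each poly(I:C) group holds a single library.

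Libraries of one genotype that share a title number can be set side by side for 9 pairs, as a description. Cish was lower with poly(I:C) in 9 of 9, by -0.03 (FancgKO 6) to -1.49 on the log2 scale, with a median of -0.91. Socs5 was lower in 8 of 9, with a median of -0.42, and Socs3 in 8 of 9, with a median of -0.60. FancgKO number 6 was the exception for both, where Socs3 went from 14.61 to 20.48 and Socs5 from 70.11 to 74.41. The widest change in Socs3 was in Mdm4Tg number 8, from 16.35 to 3.387 normalized counts, 20.7% of the PBS value. Socs1 was higher in 7 of 9 pairs, with a median of 1.12, and in all 3 WT pairs: from 2.655 to 7.421 (number 6), 3.345 to 8.872 (7) and 3.965 to 10.01 (8). In WT numbers 6 and 7, Xist was at 24.78 and 3.345 with PBS against 5943 and 20210 with poly(I:C). For every gene in those pairs, treatment cannot be told apart from what the Xist difference marks. Socs1 (ENSMUSG00000038037; chromosome 16, 10782240 to 10785536, minus strand) did not overlap between the WT groups, with PBS at 2.655 to 5.722 and poly(I:C) at 7.421 to 10.01. These values rest on few reads: 3, 3, 2 and 8 with PBS, and 9, 6 and 32 with poly(I:C). What share of all genes did not overlap between the WT groups was not counted. Mdm4Tg number 7 had no Socs1 read with PBS, which allows up to 3 reads or 5.893 normalized counts, and 6.671 with poly(I:C). In FancgKO the Socs1 ranges overlapped, at 2.921 to 10.96 for PBS against 4.342 to 7.491 for poly(I:C). Socs2 was lower in 7 of 9 pairs, Socs6 lower in 6, and Socs4 and Socs7 higher in 7 and 6.

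**Figure D3:**
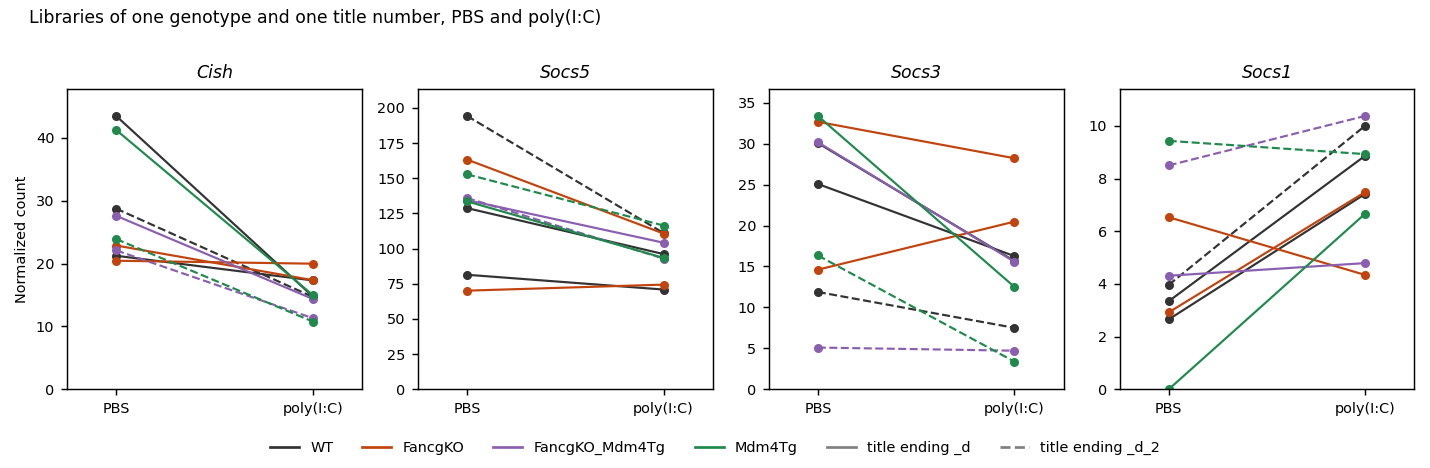
Normalized counts (vertical axis, linear, from 0) of Cish, Socs5, Socs3 and Socs1 in the 9 pairs of libraries that share a genotype and a title number, with PBS on the left and poly(I:C) on the right, coloured by genotype and dashed for titles ending in _d_2. All 9 Cish lines go down, and 7 of 9 Socs1 lines go up. The Socs3 lines of FancgKO_Mdm4Tg number 7 and WT number 6 nearly coincide.

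Taken within each genotype, no member passed in the fit of 8 group means. In WT 0 of 8 were called, against 0.0158% of all genes (2 genes; 1881 at an unadjusted p under 0.05, 7 called by edgeR and 239 by DESeq2). The largest WT values were those of Socs1, at 1.02 ± 0.60 (limma adjusted p = 0.436), and Cish, at -0.95 ± 0.32 (0.161). Residuals of same-numbered WT libraries were correlated (0.412 to 0.632 over 3 pairs). These libraries share the title ending as well, and over all groups other numbers of the same ending correlated at a median of 0.377. With the number as a block 869 genes, 6.88%, were called. In that limma fit still 0 members passed, with Cish at -0.97 ± 0.30 (limma adjusted p = 0.0513), Socs5 at -0.47 ± 0.16 (0.0855) and Socs1 at 1.24 ± 0.52 (0.148). Cish was thus just outside the threshold in WT. Xist was high in WT libraries 6 and 7 with poly(I:C) and in no WT library with PBS. The WT contrast therefore cannot fully separate treatment from Xist in any of these fits. By edgeR with the same block, where 13.1% of genes were called, 3 members passed: Cish at -0.95 (edgeR adjusted p = 0.0314) and Socs5 at -0.52 (0.0359) lower, and Socs1 at 1.36 (0.0499) higher. With limma's array weights and no block, which also called 13.1% of genes, Cish (limma adjusted p = 0.0378) and Socs5 (0.0257) passed as lower and Socs1 did not (0.259).

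In FancgKO, FancgKO_Mdm4Tg and Mdm4Tg limma called 0.0% of genes, with 914, 1082 and 1605 at an unadjusted p under 0.05, and with 0, 0 and 13 called by edgeR and 0, 5 and 45 by DESeq2. Cish was at -0.59 ± 0.32 in FancgKO, -0.98 ± 0.38 in FancgKO_Mdm4Tg and -0.98 ± 0.38 in Mdm4Tg. Socs5 was at -0.59 ± 0.30, -0.65 ± 0.35 and -0.55 ± 0.35 in the same order. Both genes thus had negative values in all 4 genotypes, none of them called within 1 genotype in the fit of group means. Socs1 was at -0.04 ± 0.60, 0.08 ± 0.72 and 0.93 ± 0.72, and Socs3 at -0.12 ± 0.76, -0.13 ± 0.91 and -1.20 ± 0.91. In Mdm4Tg, Socs3 was called with the title number as a block (-1.64 ± 0.46; limma adjusted p = 0.0438), where 4.85% of genes were, although only 2 pairs share a number there.

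Whether the response depended on genotype was tested as a difference of responses. For Fancg knockout against Fancg wild type, 0 members and 0.0% of genes were called (100 genes at an unadjusted p under 0.05, 0 called by edgeR and by DESeq2). Socs1 had the widest member value, -0.95 ± 0.67, followed by Socs3 at 0.55 ± 0.84, and that of Cish was 0.18 ± 0.35 (limma adjusted p = 1.00 for each). With against without the Mdm4 transgene it was again 0 members and 0.0% of genes (62 at an unadjusted p under 0.05, and 0 by edgeR and by DESeq2), with Socs3 at -0.53 ± 0.84, Socs7 at 0.39 ± 0.26 and Cish at -0.21 ± 0.35. With SEs of this size a difference of responses of 1 on the log2 scale was not detectable for Socs1, Socs2 or Socs3.

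Genotype alone moved no member past the threshold. FancgKO against WT with PBS gave 0 members and 0.0% of genes (497 genes at an unadjusted p under 0.05, and 0 by edgeR and by DESeq2). Its widest values were Socs1 at 0.62 ± 0.56 and Cish at -0.51 ± 0.29 (limma adjusted p = 0.999 for both). Cish values of FancgKO with PBS, 20.36 to 22.87, lay at the low end of the WT range of 21.24 to 43.48 and overlapped it. With PBS, Xist was high in FancgKO libraries 6 and 7 and in no WT library, so this contrast cannot fully separate genotype from Xist. Residuals of same-numbered libraries were correlated here too (0.396 to 0.734 over 3 pairs), and with the block 4 genes, 0.0317%, were called, none of them a member. With poly(I:C), FancgKO against WT gave 0 members and 0.0% of genes (46 at an unadjusted p under 0.05, and 0 by edgeR and by DESeq2), and member values ran from -0.43 ± 0.65 for Socs1 to 0.15 ± 0.63 for Socs2.

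The Mdm4 transgene gave 0 members both against FancgKO and against WT with PBS, where 1 gene each, 0.00792%, was called. Against FancgKO, Socs7 was at -0.46 ± 0.23 (limma adjusted p = 0.931) and Socs3 at -0.48 ± 0.76. Against WT the values ran from -0.24 ± 0.32 for Cish to 0.25 ± 0.59 for Socs2. Averaged over the other factors, the Fancg knockout called 2 genes (0.0158%) and the transgene 1 gene (0.00792%), with 267 and 325 at an unadjusted p under 0.05 and no member among the called genes. Member values lay between -0.16 ± 0.18 (Cish) and 0.21 ± 0.33 (Socs1) for the knockout, and between -0.38 ± 0.42 (Socs3) and 0.17 ± 0.16 (Socs5) for the transgene.

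Between _d and _d_2, with the group means removed, 5 of 8 members differed, against 45.3% of all genes (a comparison added after the data were seen). The averaged poly(I:C) contrast had called 2 of 8, against 23.6% of all genes, so the ending called more of all genes as well. Socs3 was higher in _d libraries. It ran from 12.51 to 33.39 (median 22.78) over the 12 _d libraries and from 3.035 to 16.35 (median 6.406) over the 12 _d_2 libraries. The 2 sets overlapped at their edges, and the log2 difference was 1.70 ± 0.21 (limma adjusted p = 1.48e-06).

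Socs4 (ENSMUSG00000048379; chromosome 14, 47276931 to 47296102, plus strand), the most abundant member, was lower in the _d libraries. It ran from 251.5 to 384.6 (median 312.7) in _d and from 457.2 to 631.1 (median 522.2) in _d_2. The sets did not overlap, and the log2 difference was -0.72 ± 0.07 (limma adjusted p = 3.33e-08). How many of all genes separate fully between the endings was not counted. Socs6 was lower by a log2 difference of -0.40 ± 0.08 (1.83e-04), with 117.6 to 192.3 in _d and 163.9 to 214.8 in _d_2. Socs1 was at -0.92 ± 0.27 (limma adjusted p = 0.00851), with 0 to 8.872 in _d and 3.965 to 10.96 in _d_2, and Socs5 at -0.40 ± 0.13 (0.0192). Cish, at 0.34 ± 0.16 (0.0812), Socs2, at -0.34 ± 0.32 (0.394), and Socs7, at 0.06 ± 0.12 (0.697), did not pass. In the poly(I:C) libraries alone Socs3, Socs4 and Socs6 passed, and Socs1 (-0.45, limma adjusted p = 0.221) and Socs5 (-0.13, 0.547) did not. Without the 6 libraries with Xist of at least 100, the 5 differences kept their direction and Socs3 was at 1.78 (limma adjusted p = 2.09e-04).

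Fos and Junb, immediate early genes that cells switch on within a short time of a stimulus, were also higher in _d; both were chosen after their values were seen. Fos, which encodes a subunit of the AP-1 factor, was at 1241 to 4035 normalized counts in _d and 31.82 to 229.1 in _d_2, with a log2 difference of 4.64 ± 0.26 (limma adjusted p = 7.47e-12). Junb, which encodes its partner, was at 131.8 to 284.9 and 17.17 to 74.52, with a difference of 2.42 ± 0.21 (1.12e-08). The 2 sets of libraries did not overlap for either gene. Of the other STAT3 targets set beside Socs3, Cebpd, a myeloid transcription factor, was higher by 0.97 ± 0.25 (limma adjusted p = 0.00271), and Bcl3, a partner of NF-kB, was at 0.12 ± 0.27 (0.753). Over all genes tested, 21.7% were higher in _d and 23.6% lower. Of 9 STAT3 targets 6 were higher in _d and none lower, and of 9 STAT5 targets 6 were higher and 1 lower. These counts share genes: Myc and Pim1 are on both lists and were higher in _d (limma adjusted p = 0.00158 and 0.0346). Fos, Junb and Cebpd, given above, are on the STAT3 list as well. Of 6 SOCS box partners 5 were lower and none higher. Among cell type markers, 5 of 6 megakaryocyte, 4 of 7 granulocyte progenitor and 3 of 5 erythroid genes were higher in _d, and 6 of 7 lymphoid progenitor genes were lower. The part of these genes and cell types in the SOCS values was not tested.

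**Figure D4:**
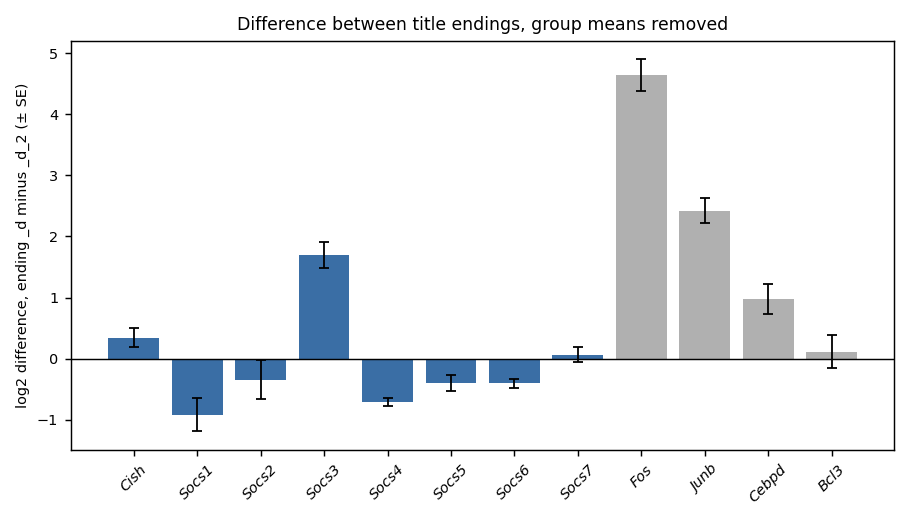
Log2 difference between libraries with titles ending in _d and in _d_2 (vertical axis, log2(normalized count + 1) scale, error bars 1 SE) with the 8 group means removed, for the SOCS genes (blue) and 4 genes set beside Socs3 (grey). Socs3 lies at 1.70 beside Fos at 4.64 and Junb at 2.42, and Socs4 at -0.72 and Socs1 at -0.92 point the other way.

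Upstream of the SOCS proteins, both kinases and STAT factors had members that fell with poly(I:C) and none that rose. Of 4 JAK kinases, Jak1 was lower by a log2 difference of -0.22 ± 0.06 (limma adjusted p = 0.0125) and Jak3, the kinase of the common gamma chain, by -0.58 ± 0.16 (0.0133). The list's median was -0.08. Among 7 STAT factors, Stat4, which transmits interleukin-12 and interferon signals, fell by 0.91 ± 0.11 on the log2 scale (6.02e-05). The median over the STAT list was -0.07, and Stat5a, at 0.28 ± 0.11, did not pass (limma adjusted p = 0.0645). Among 31 measured cytokine receptor chains of 34, 6 rose and 8 fell (median -0.10). Flt3, the receptor of early lymphoid progenitors, was lower at -1.11 ± 0.17 (limma adjusted p = 5.39e-04). The chains of the interferon-gamma receptor rose, Ifngr1 by 0.96 ± 0.16 (7.10e-04) and Ifngr2 by 0.49 ± 0.12 (0.00839).

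Over all genes tested, 11.9% rose and 11.6% fell. Of 6 partners of the SOCS box, which act beside the SOCS proteins, Elob, which encodes elongin B, rose by 0.72 ± 0.19 (limma adjusted p = 0.0102), and the list's median was 0.15. Of 13 other inhibitors of the pathway, 1 rose and 1 fell (median -0.04): the phosphatase gene Ptpn11 at 0.29 ± 0.07 (0.00518) and Ptprc, which encodes the CD45 phosphatase, at -0.43 ± 0.08 (limma adjusted p = 0.00155). Of 9 measured STAT5 targets of 10, Myc rose by 0.34 ± 0.09 (0.0132) and Pim1, a survival kinase gene, was lower at -0.49 ± 0.11 (0.00512), with a median of -0.02. Cish and Socs2 are STAT5 targets as well and had values of -0.88 and -0.51. Of 9 STAT3 targets, 3 rose and 1 fell (median 0.27), with Cebpd at 1.47 ± 0.32 (limma adjusted p = 0.00366) and Cebpb at 0.79 ± 0.26 (0.0346), both drivers of myeloid differentiation; Myc and Pim1, which are on this list as well, were the others. Of 16 measured genes of 18 that an interferon response induces, 2 rose and 2 fell (median 0.12). Gbp3, a guanylate-binding protein gene, was at 0.56 ± 0.14 (0.00962) and Psmb8, of the immunoproteasome, at 0.40 ± 0.14 (0.0489), against Oasl2 at -0.43 ± 0.12 (0.0129) and Irf1 at -0.32 ± 0.10 (limma adjusted p = 0.0309).

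Markers of other cell types moved with the treatment as well. All 7 granulocyte progenitor markers rose, and their summed normalized count was 1469 to 13640 with PBS (median 2697) against 5767 to 22560 with poly(I:C) (median 11440). All 6 monocyte markers rose (280.0 to 1797 against 712.0 to 3333), as did 5 of 6 mast cell and basophil markers (370.0 to 833.5 against 845.6 to 1266) and 5 of 5 measured erythroid markers (37.10 to 349.6 against 192.1 to 1033). Of 6 megakaryocyte markers 1 rose and 1 fell, and their sum was 217.7 to 826.5 against 236.3 to 828.1. Of 7 lymphoid progenitor markers 4 fell and none rose (1654 to 5650 against 894.4 to 2330), and of 7 measured stem cell markers 6 fell and none rose (1157 to 3167 against 773.6 to 1917). B cell markers stayed low, at 21.93 to 71.75 against 24.53 to 35.82 with 0 of 3 measured genes called. T and NK cell markers were at 101.9 to 248.3 against 183.3 to 354.1, with Cd3g at 0 in all PBS libraries. Only 1 gene of that list was tested, Nkg7, which was higher and had a mean of 191.2 normalized counts. The gate gene Kit was lower at -0.26 ± 0.07 (limma adjusted p = 0.0120), and Ly6a was at -0.20 ± 0.22 (0.518). The part of this shift in markers in the lower Cish and Socs5 was not tested.

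The genes most like each abundant member were ranked across the libraries. With Pearson's r of the log2 values over 24 libraries as the measure, and only genes with a mean of at least 50, the nearest to Socs4 were Tnks2, a tankyrase gene (0.964), Ube3a, a ubiquitin ligase gene (0.953), and B230219D22Rik (0.949). The title ending is shared by these points, and within it r was lower for all 3: Tnks2 had 0.743 over the 12 _d and 0.908 over the 12 _d_2 libraries, Ube3a 0.605 and 0.752, and B230219D22Rik 0.550 and 0.749. For Socs5 they were Zfp157 (0.920), Prpf39, a splicing factor gene (0.920), and Epb41l4b (0.918), with 0.841 to 0.902 within _d and 0.878 to 0.939 within _d_2. Socs6 was nearest to Creb1, the cyclic AMP response factor gene (0.919), Tnks2 (0.918) and Rock1, a kinase gene (0.898), with 0.730 to 0.839 within _d and 0.654 to 0.851 within _d_2. Socs7 had no close companion, with Irak1 at 0.639 and Coq5 at 0.631 among the nearest. Libraries differ in depth and in the levels of cell type markers, and the part of either in these correlations was not tested. Socs1, Socs2, Socs3 and Cish were below the mean of 50 and were not ranked.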

How the data were processed

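Polyadenylated RNA of 24 libraries was measured. The submitters' processing notes list STAR and mm10; counter and normalization tool are not given in the sources used here. The values are a signal, normalized counts deposited by the authors per the file name. In each column 100% of values were whole multiples of the smallest positive one (relative tolerance 1e-06), so whole reads were recovered; intervals and limits cover counting error only. Genes were named in the file (16217) or from the GRCm38 annotation (10006), and 44 stayed unnamed.

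Log2(normalized count + 1) of 12628 genes with at least 10 in at least 2 libraries entered limma 3.58.1 under R 4.3.3. The fit had a mean for each of 8 groups, a trended variance and 13 contrasts, with Benjamini-Hochberg adjustment at 0.05. It was checked on simulated data drawn without an effect of title ending or number, so that check does not cover such effects. The added 1 understates the change of low genes. edgeR 4.0.16 and DESeq2 1.42.0 were run on recovered reads. The members and the 18 gene lists were chosen with earlier results of these data known. Named are all members, up to 4 genes a list by smallest p (mean at least 10), the 3 genes most like each abundant member, and, chosen after values were seen, Fos, Junb and Bcl3; some genes these rules name are not reported here. Title numbers were taken as pairs where at least 3 pairs of residuals all correlated above 0.1: poly(I:C) in WT, FancgKO against WT with PBS (both in the report) and with poly(I:C) (0.458 to 0.818), and Mdm4Tg against WT with PBS (0.478 to 0.522). Over 9 pairs of a genotype the lowest was 0.0951. Same-numbered libraries also share the title ending, so this rule cannot tell the number from the ending. Added after the data were seen were fits within each title ending, an Xist covariate, edgeR with the block, the block with libraries left out, and the comparison of endings. No Socs2, Socs5, Socs6 or Socs7 promoter and no protein sequence was used here.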

Additional observations from a re-analysis of the deposited data

Results flagged for a closer look

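Socs5 was at 70.11 normalized counts in FancgKO library 6 with PBS, against 163.3 to 173.2 in the other 3 libraries of the group, and the gap between 70.11 and the nearest other library took up most of the group's range. The same group and WT with PBS were the only ones with 4 libraries, so 16 sets of member values were looked at, and chance marks about 1 in 20 such sets. The library is 1 of the 6 with high Xist, and its title ends in _d.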

How the results depend on the processing

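Cish and Socs5 stayed lower and past the threshold in the averaged poly(I:C) contrast under each other pseudocount, scaling, weighting, tool and covariate tried where they were tested, and without each of the 24 libraries in turn (2 members called throughout; limma adjusted p at most 0.00987 for Cish and 0.0400 for Socs5). A minimum of 50 left 1 member called, as Cish was no longer tested. With libraries of title ending _d alone none was called. Within the other 12 libraries each poly(I:C) group holds a single library, and Cish was at -1.10 and Socs5 at -0.77 there. With the replicate block 3 were called (Socs3 added, at -0.80; limma adjusted p = 0.0120), and 4 without FancgKO_PBS replicate 6 (Socs2 added), FancgKO_PBS replicate 7 or Mdm4Tg_PBS replicate 8 (Socs1 added). In WT, 2 members were called with array weights (Cish and Socs5, lower) and 3 by edgeR with the block (these and Socs1, higher); with the limma block, leaving out a library gave 0 or 1, the 1 being Cish. In Mdm4Tg 1 member was called with the block in limma and in edgeR. For the title endings 3 were called within poly(I:C) libraries, 6 by edgeR or without WT_PBS replicate 6. The cause of these changes was not tested. In the other 10 comparisons the count of members stayed at 0 under each alternative.

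Only values that passed no test changed sign. Socs4 in the averaged contrast (-0.08) was 0.10 with the replicate block, 0.041 with the ending fitted, 0.068 within _d, 0.019 within _d_2, 0.052 with Xist, 0.11 by edgeR with the block, and -0.18 to 0.14 without single libraries. In WT, Socs3 (-0.15) was 0.15 with array weights, 0.11 within _d_2 and -0.73 to 0.20 without single libraries. Socs4 (-0.15) was 0.014 with the block, 0.082 within _d_2, 0.35 with Xist, 0.043 by edgeR with the block and -0.43 to 0.13 without single libraries. Socs6 (-0.14) was 0.011 within _d_2, 0.13 with Xist and -0.29 to 0.074 without single libraries, and Socs7 (-0.03) was 0.0014 within _d and -0.16 to 0.13. In FancgKO against WT with PBS, Socs2 (0.26) was -0.081 with the block, -0.094 within _d and -0.22 to 0.90 without single libraries. Socs3 (-0.02) was 0.090 with array weights, 0.28 within _d_2 and -0.56 to 0.33. Socs4 (-0.21), Socs5 (-0.06) and Socs6 (-0.13) were 0.15, 0.15 and 0.070 with Xist, and Socs5 was 0.064 within _d; without single libraries Socs5 ran from -0.32 to 0.25 and Socs6 from -0.27 to 0.015. Socs7 (-0.01) was 0.046 with array weights, 0.040 by edgeR, 0.042 by DESeq2, 0.17 within _d and -0.12 to 0.17. Between endings Socs7 (0.06) ran from -0.035 to 0.16.

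Over all genes, the averaged contrast called 2974 with limma, 3903 with the block, 3622 by edgeR, 3697 by DESeq2 and 5023 by edgeR with the block. Poly(I:C) in WT called 2, against 869 with the block, 350 with the ending fitted and 1654 by edgeR with the block. In FancgKO it called 0, against 2 by edgeR with the block. In FancgKO_Mdm4Tg it called 0, against 136 with the block, 5 by DESeq2 and 311 by edgeR with the block. In Mdm4Tg it called 0, against 612 with the block, 10 with the ending fitted, 45 by DESeq2 and 1577 by edgeR with the block. The averaged knockout effect called 2, against 14 with the block, 8 with the ending, 7 by DESeq2, 16 by edgeR with the block and 0 within either ending, and the transgene 1 against 2, and 3 by DESeq2 and by edgeR with the block. FancgKO against WT with PBS called 0, and 1 with the ending or by edgeR with the block; FancgKO_Mdm4Tg against FancgKO called 1, and 2 by DESeq2 or within _d_2. Same-numbered libraries correlated at a median of 0.480, others of their ending at 0.377 and those of the other ending at -0.414. In FancgKO, FancgKO_Mdm4Tg and Mdm4Tg too few numbers are shared to pair them. Where numbers were taken as pairs, the block changed no other call of a member. Depth limits Socs1, Socs2, Socs3 and Cish most, with at most 58 reads a library.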
